A study of Mus musculus with 12 samples.

Results

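The BCL2 family decides whether the outer membrane of the mitochondrion stays closed or is opened. Its anti-apoptotic proteins hold the pore-forming proteins Bax and Bak1 in check, and the BH3-only proteins bind the anti-apoptotic proteins or activate the pore formers directly. In heart muscle cells this step is one of the routes by which doxorubicin is known to cause cell death. Described here are 10 genes of the family, chosen by gene name from the 54345 genes of the deposited table: the anti-apoptotic Mcl1, Bcl2, Bcl2l1 and Bcl2l2, the pore-forming Bax and Bak1, and the BH3-only Bad, Bmf, Bcl2l11 and Bid.

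RNA was sequenced from H9c2(2-1) cells, an embryonic heart-derived cell line, in 12 libraries of 4 groups with 3 libraries each. The groups were untreated (Unt), the anthracycline doxorubicin alone (DOX), doxorubicin with the iron chelator dexrazoxane (D_DXZ), and doxorubicin with magnesium hexacyanoferrate nanocatalysts (D_MgHCF). All groups were wild type and all treatments lasted 6 h, and no dose is given for the sequenced cells. Nothing in the labels says that the 3 libraries of a group came from separate cultures, so the p-values measure the spread between these libraries, which may be technical. The labels give the organism as mouse and the study's text describes rat cells, while the table holds mouse gene models, so reads of a rat cell would have been matched to mouse sequence.

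Between 16626514 and 19365119 reads per library lay on genes, recovered from the deposited FPKM (read fragments per length of gene and per library size, here with a scaling factor for each library). Whole libraries differed beside every result. Genes above 0 numbered 20160 to 20660 per Unt library and 18530 to 20381 per DOX library. D_DXZ had 19413 to 19662 of them and D_MgHCF 23368 to 25456. The FPKM of a library summed to between 216899 and 230292 in Unt, 498756 and 627769 in DOX, 447052 and 549680 in D_DXZ, and 220276 and 290996 in D_MgHCF. Their part in the results below was not tested. When FPKM was rescaled to the same sum in every library (TPM), the median log2 change over genes with a mean FPKM of at least 1 shifted from 0.05 to -1.18 for DOX against Unt, from -0.02 to -1.10 for D_DXZ against Unt and from -0.09 to 0.99 for D_MgHCF against DOX. In these bulk samples, fewer cells of a type and less RNA per cell cannot be told apart.

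The labelled cell type, myoblast, was only partly borne out by its markers. Of the 6 skeletal myoblast markers, Des (desmin) averaged 1.46 FPKM and Mef2c 0.933 FPKM in Unt, while Myod1, Myf5, Myog and Pax7 were at 0 in all Unt libraries. In DOX, D_DXZ and D_MgHCF, Des averaged 0.552, 0.542 and 0.861 FPKM, and Mef2c 0.297, 0.460 and 0.693 FPKM. Of the cardiac markers, Gata4, a transcription factor of the early heart, averaged 10.3 FPKM in Unt, 3.35 in DOX, 2.93 in D_DXZ and 19.2 in D_MgHCF, and Tbx5 was at 0 in all 12 libraries. Tnnt2, the cardiac troponin T gene, had another order at 0.133, 0.903, 0.495 and 0.424 FPKM. The 4 fibroblast markers summed to between 20.0 and 21.6 FPKM in Unt, between 66.1 and 79.7 in DOX, between 42.5 and 65.0 in D_DXZ and between 19.3 and 32.9 in D_MgHCF, nearly all of it Col1a1. Pdgfra, a fibroblast receptor gene, went the other way at 0.718, 0.352, 0.433 and 0.537 FPKM. Leukocyte markers summed to between 0.888 and 1.11 FPKM in Unt, 2.75 and 3.54 in DOX, 3.81 and 4.29 in D_DXZ, and 1.98 and 4.79 in D_MgHCF, nearly all of it Cd68, while Ptprc, Cd3e and Adgre1 were at or near 0. Endothelial markers reached at most 1.08 FPKM and epithelial markers at most 1.63 FPKM, both in D_MgHCF. The part of these shifts in the family's values was not tested.

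In the untreated cells the family was led by Bak1 at 41.6 ± 3.72 FPKM (SD, n = 3), Mcl1 at 39.8 ± 1.39 and Bax at 36.6 ± 2.61, and the ranges of these neighbours overlapped. Bad followed at 17.5 FPKM, Bid at 14.0, Bcl2l2 at 7.61, Bcl2l1 at 5.51, Bcl2 at 2.86, Bcl2l11 at 2.32 and Bmf at 0.253, and none of these neighbours overlapped. In DOX the order was Bax at 90.5 FPKM, Bak1 at 53.7 and Bad at 41.2, all without overlap, and Mcl1 stood at 7.56 beside Bcl2l2 at 7.21, whose ranges overlapped. In D_MgHCF, Bad led at 52 FPKM, before Bax at 43.5, Mcl1 at 36.2 and Bak1 at 24.7, and each of these overlapped the next.

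**Figure D1:**
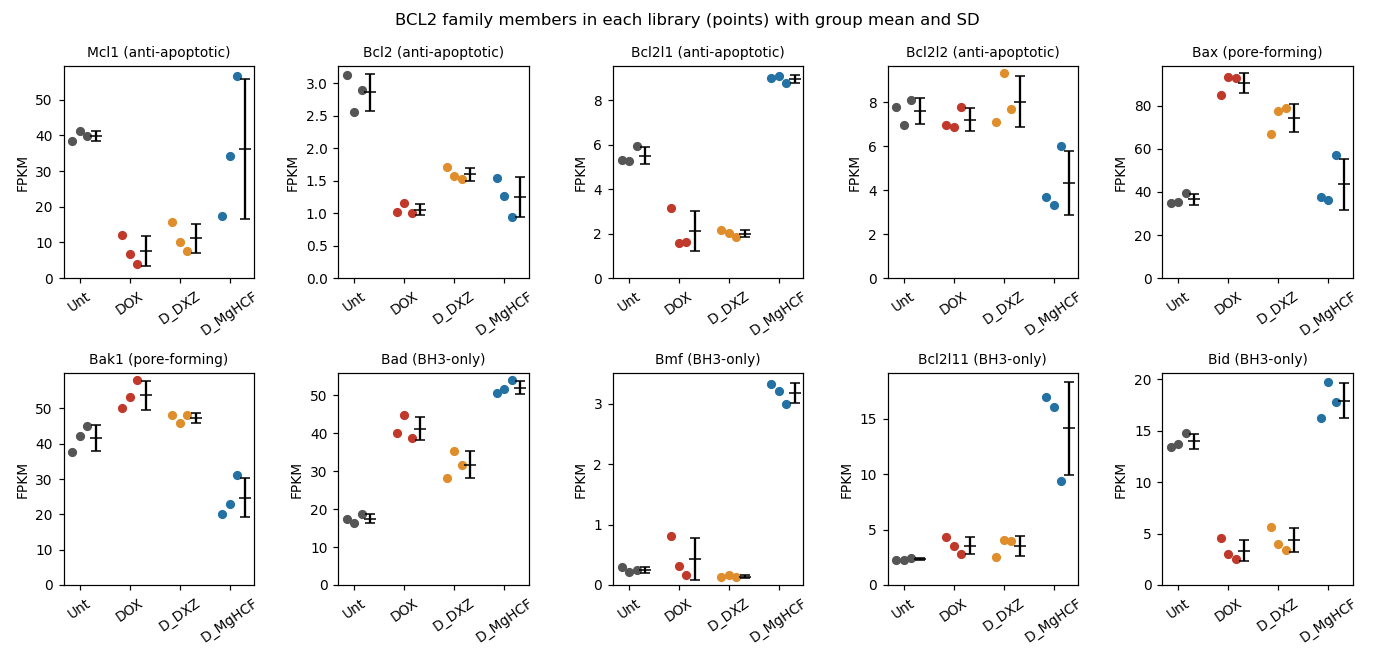
FPKM (vertical axis, from 0, a separate scale in each panel) of the 10 genes in the Unt, DOX, D_DXZ and D_MgHCF libraries. Coloured points are libraries, and black bars are the group mean with its SD (n = 3). The Mcl1 points of D_MgHCF spread from 17.5 to 56.7 FPKM, while the Bmf points of D_MgHCF, from 3.002 to 3.33, lie above all others.

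The promoters of 4 members are shown because these genes had the largest fall (Mcl1) and rise (Bax) in DOX against Unt, and the largest rises in D_MgHCF against Unt (Bcl2l11 and Bmf). Each is the 150 bases before the RefSeq start site nearest the deposited gene's 5′ end, in build GRCm38.p6, read 5′ to 3′ on the gene's strand. Capitals mark 6 motifs on either strand. The GC box is spelled GGGCGG and the CCAAT box is spelled as its name. The E-box is searched as CACGTG and the TATA box as TATAAA. The cyclic AMP response element (CRE) is the 8-letter palindrome TGACGTCA. The FOXO motif is read as GTAAACA. Letters shared by overlapping motifs are capitalised once.
Mcl1, chr3:95658571-95658720, plus strand: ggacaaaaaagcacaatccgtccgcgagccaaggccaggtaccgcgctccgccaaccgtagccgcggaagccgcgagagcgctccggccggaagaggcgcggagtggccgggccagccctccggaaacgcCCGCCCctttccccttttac
Bax, chr7:45466899-45467048, minus strand: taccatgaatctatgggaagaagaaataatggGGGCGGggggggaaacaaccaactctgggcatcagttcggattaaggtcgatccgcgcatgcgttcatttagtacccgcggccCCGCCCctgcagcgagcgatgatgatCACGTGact
Bcl2l11, chr2:128125888-128126037, plus strand: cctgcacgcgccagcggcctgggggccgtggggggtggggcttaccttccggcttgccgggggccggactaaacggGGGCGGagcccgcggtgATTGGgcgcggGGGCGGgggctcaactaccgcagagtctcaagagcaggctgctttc
Bmf, chr2:118549687-118549836, minus strand: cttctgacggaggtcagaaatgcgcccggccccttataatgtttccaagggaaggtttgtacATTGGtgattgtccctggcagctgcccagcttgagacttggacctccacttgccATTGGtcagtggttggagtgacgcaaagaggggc

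In the 250 bases before the start site nearest the deposited gene's 5′ end, the GC box was found in 7 of the 10 members. It was found in 32.7% of all 32851 promoters of that length in RefSeq. Bcl2l1 and Bmf had 3 start sites each, and Bad and Bcl2l11 had 2 each, of which only the nearest was searched. The counts are per gene and the shares per promoter, so they are not of the same kind. The CCAAT box was found in 2 members, Bmf with 3 matches and Bcl2l11 with 1, against 33.8% of promoters. Bax held 1 E-box (6.02% of promoters) and 1 match to the p53 half-site (7.13%), and Bcl2l11 held 1 FOXO motif (3.17%), which lies outside the stretch printed. No member held the TATA box (12.4% of promoters) or the CRE (1.55%) in this window. These are letter matches only.

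The comparison of DOX with Unt asked what doxorubicin alone did to the family. Of the 10 members, 6 were called by limma at an adjusted p under 0.05, 2 higher and 4 lower, beside 38.4% of the 25044 genes tested. The members' median log2 change was 0.05, beside 0 over all genes tested. Of the anti-apoptotic genes 3 of 4 fell, of the pore-forming genes 1 of 2 rose, and of the BH3-only genes 1 rose and 1 fell. Under TPM scaling 0 members were called higher and 7 lower, beside 4.44% and 40.8% of all genes, so the rises given here are those on the deposited scale.

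Mcl1, whose short-lived protein sequesters Bak1 and Bcl2l11, stood at 38.5, 41.2 and 39.7 FPKM in Unt and at 12.1, 6.68 and 3.89 FPKM in DOX. The groups did not overlap, and the DOX mean was 0.19 times the Unt mean. The log2 change was -2.37 ± 0.44 (SE; adjusted p = 0.00125), and Mcl1 was lower under TPM scaling as well, by -3.79. Bcl2l1, which encodes Bcl-xL, had 5.31, 5.26 and 5.94 FPKM in Unt and 3.17, 1.58 and 1.62 in DOX, a log2 change of -1.09 ± 0.17 (adjusted p = 0.000403), without overlap. Bcl2, the founding member, had 3.13, 2.56 and 2.89 FPKM in Unt and 1.01, 1.15 and 1.00 in DOX, a log2 change of -0.91 ± 0.14 (adjusted p = 0.000318). Bcl2l2, which encodes Bcl-w, was the exception among the 4, at 7.78, 6.96 and 8.08 FPKM in Unt and 6.95, 6.88 and 7.79 in DOX, and the groups overlapped (log2 change -0.07 ± 0.17, adjusted p = 0.861). Under TPM scaling Bcl2l2 was called lower at -1.37. Bcl2l2 was the most abundant anti-apoptotic transcript in 3 of the 12 libraries, DOX replicates 2 and 3 and D_DXZ replicate 3, and Mcl1 in the others.

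Bax, a cytosolic protein that inserts into the mitochondrial membrane on activation, stood at 34.9, 35.2 and 39.6 FPKM in Unt and at 85.1, 93.6 and 92.9 in DOX. The log2 change was 1.28 ± 0.16 (adjusted p = 8.71e-05) on the deposited scale and -0.06 under TPM scaling, while under quantile normalization it was 0.18 and not called (adjusted p = 0.531). Measured against the median gene, the TPM values of Bax, Bad, Bcl2l11 and Bak1 were 1.12, 1.05, 0.49 and 0.19 higher. The deposited scaling equals a median-ratio factor, so this step largely returns the deposited scale. Bak1, the pore former that resides in the membrane, had 37.6, 42.2 and 45.0 FPKM in Unt and 49.97, 53.2 and 58.0 in DOX. The Bak1 ranges did not overlap, but the change of 0.36 ± 0.14 was not called (adjusted p = 0.0635). It was called higher with a filter at an FPKM of at least 1 (adjusted p = 0.0443), in the fit of these 2 groups alone (adjusted p = 0.023) and without D_MgHCF replicate 1 or 3, and called lower under TPM scaling at -0.99 and quantile normalization at -0.68.

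Bad, a BH3-only protein kept inactive by phosphorylation, had 17.4, 16.3 and 18.8 FPKM in Unt and 40.2, 44.7 and 38.8 in DOX, a log2 change of 1.19 ± 0.10 (adjusted p = 1.28e-05) on the deposited scale and of -0.13 under TPM scaling. Bid, which is cleaved by caspase-8 to become active, moved the other way, from 13.4, 13.7 and 14.8 FPKM in Unt to 4.53, 2.96 and 2.56 in DOX. Its log2 change was -1.81 ± 0.18 (adjusted p = 3.00e-05) and -3.24 under TPM scaling. Bcl2l11, which encodes Bim, had 2.25, 2.27 and 2.45 FPKM in Unt and 4.32, 3.53 and 2.77 in DOX, which did not overlap but was not called (0.44 ± 0.23, adjusted p = 0.177). Under TPM scaling Bcl2l11 was called lower (-0.68, adjusted p = 0.0308), and under quantile normalization it was called higher (0.83, adjusted p = 0.0374). Bmf, a BH3-only protein that binds the cytoskeleton, had 0.303, 0.207 and 0.249 FPKM in Unt and 0.815, 0.312 and 0.165 in DOX. Its DOX libraries rested on 65, 21 and 10 reads and overlapped the Unt libraries (0.17 ± 0.15, adjusted p = 0.478).

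**Figure D2:**
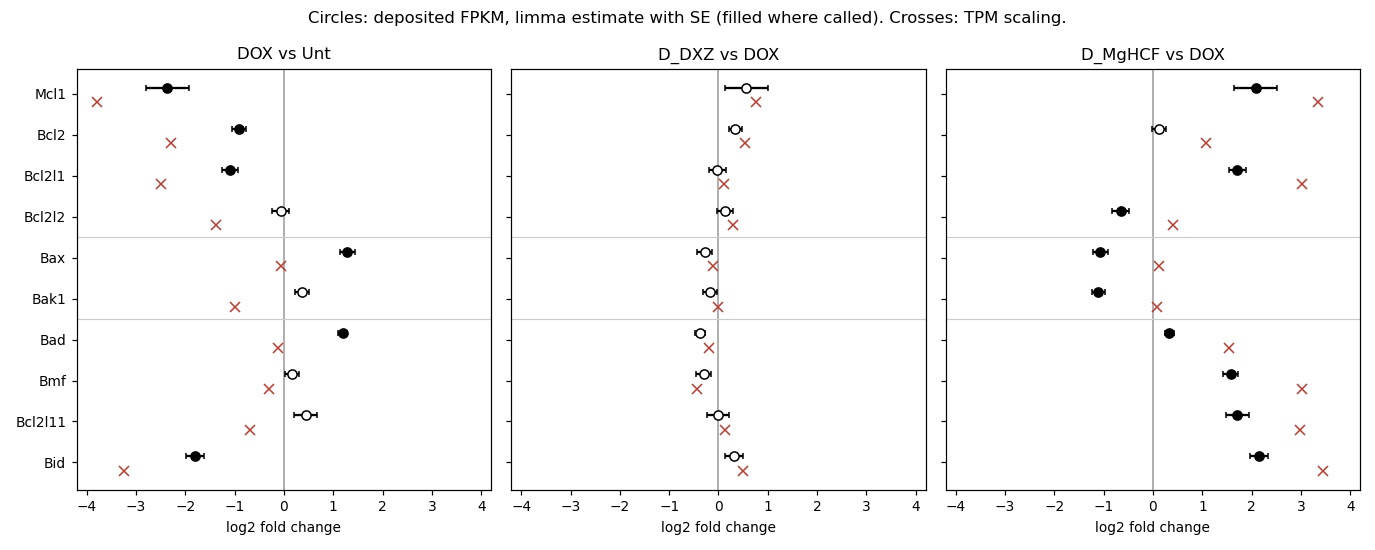
Log2 fold change (horizontal axis) of the 10 genes in 3 comparisons. Circles are limma estimates on the deposited FPKM with their SE, filled where called at an adjusted p under 0.05, and crosses are the estimates under TPM scaling. Grey lines part the anti-apoptotic, pore-forming and BH3-only genes. In DOX vs Unt the crosses lie left of the circles, with Bax at 1.28 and -0.06, and in D_MgHCF vs DOX they lie to the right.

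The D_DXZ group asked how the family stood when dexrazoxane was added to doxorubicin. Against Unt, the D_DXZ libraries had 6 members called, again 2 higher and 4 lower, beside 33.9% of the genes tested. The members were Bax and Bad, which were higher on the deposited scale but at -0.17 and -0.33 under TPM scaling, and Mcl1, Bcl2, Bcl2l1 and Bid, which were lower. Under quantile normalization Bcl2 (-0.23, adjusted p = 0.186) and Bax (0.15, adjusted p = 0.633) were not called. With the filter at an FPKM of at least 1, 2 members were called higher and 4 lower, beside 32.8% and 34.8% of genes. Under TPM scaling 0 members were called higher and 7 lower, beside 3.65% and 40.3% of all genes. Bcl2l2 (-1.07, adjusted p = 0.00328), Bak1 (-0.99, adjusted p = 0.00224) and Bmf (-0.74, adjusted p = 0.0425) were then called lower as well. This comparison and the preceding one share the Unt libraries. Mcl1 stood at 15.6, 10.2 and 7.58 FPKM in D_DXZ, a log2 change of -1.80 ± 0.44 against Unt (adjusted p = 0.00793).

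Against DOX itself, none of the 10 members was called, beside 0% of the genes tested. limma gave 0 genes of 25044 at an adjusted p under 0.05, the smallest adjusted p being 0.087, while 2388 genes (9.54%) had an unadjusted p under 0.05, and limma-voom on the recovered reads gave 0 genes with either scaling. Of the members, Bad and Bcl2 had an unadjusted p under 0.05. Bad had 28.2, 35.4 and 31.6 FPKM in D_DXZ, all below the DOX libraries (-0.37 ± 0.10, adjusted p = 0.305). Bcl2 had 1.70, 1.57 and 1.52 FPKM in D_DXZ, all above the DOX libraries (0.34 ± 0.14, adjusted p = 0.481). Bax, at 66.7, 77.6 and 78.9 FPKM, also lay below all DOX libraries without a call (-0.28 ± 0.16, adjusted p = 0.613). So did Bak1, at 48.1, 45.8 and 48.2 FPKM (-0.18 ± 0.14, adjusted p = 0.749), and Bmf, at 0.13, 0.16 and 0.128 FPKM from 9 to 11 reads (-0.30 ± 0.15, adjusted p = 0.562). Mcl1 overlapped DOX (0.56 ± 0.44, adjusted p = 0.743), and so did Bcl2l1 (-0.02 ± 0.17) and Bcl2l11 (-0.01 ± 0.23).

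The D_MgHCF group asked the same of the nanocatalysts. Against DOX, 9 members were called, 6 higher and 3 lower, beside 51.5% of the genes tested. With the filter at an FPKM of at least 1 these counts were the same, beside 35.9% of genes higher and 39.2% lower. The members' median log2 change was 0.95, beside 0.07 over all genes tested. All 4 BH3-only genes rose and both pore-forming genes fell, while of the anti-apoptotic genes Mcl1 and Bcl2l1 rose, Bcl2l2 fell and Bcl2 was not called. Under TPM scaling 7 members were called higher and 0 lower, beside 53.9% and 6.75% of all genes: Bcl2 was added at 1.07, and Bax, Bak1 and Bcl2l2 stood at 0.13, 0.08 and 0.41 without a call. The 3 falls are therefore falls on the deposited scale, and relative to the median gene they were -0.86 for Bax, -0.91 for Bak1 and -0.58 for Bcl2l2 under TPM scaling. Taking values relative to the median gene again largely returns the deposited scale.

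Mcl1 stood at 17.5, 34.4 and 56.7 FPKM in D_MgHCF, the widest spread of any member in this group in FPKM. All 3 lay above DOX (2.09 ± 0.44, adjusted p = 0.00248), and they lay on both sides of the Unt libraries. The call of Mcl1 against DOX was lost in the fit of these 2 groups alone with the replicate number as a block. Bcl2l1 had 9.01, 9.10 and 8.77 FPKM, 4.21 times the DOX mean (1.71 ± 0.17, adjusted p = 2.31e-05). Bcl2 had 1.54, 1.27 and 0.934 FPKM and overlapped DOX (0.12 ± 0.14, adjusted p = 0.483). Bcl2l2 had 3.67, 3.34 and 6.00 FPKM, below DOX on the deposited scale (-0.65 ± 0.17, adjusted p = 0.00899), and was not called in the fit of these 2 groups alone (adjusted p = 0.0557).

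Bax had 37.5, 36.1 and 57.0 FPKM in D_MgHCF, below every DOX library (-1.07 ± 0.16, adjusted p = 0.000251) on the deposited scale, though at 0.05 under quantile normalization. Bak1 had 20.2, 23.0 and 31.0 FPKM, also below every DOX library (-1.11 ± 0.14, adjusted p = 9.22e-05) on the deposited scale, and was not called under quantile normalization (-0.26, adjusted p = 0.226). In both genes replicate 3 was the highest of the group.

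Bcl2l11 had 17.0, 16.1 and 9.34 FPKM in D_MgHCF, 3.99 times the DOX mean, without overlap (1.71 ± 0.23, adjusted p = 0.00014). Bmf had 3.33, 3.21 and 3.002 FPKM, from 367, 429 and 387 reads, 7.38 times the DOX mean (1.57 ± 0.15, adjusted p = 1.74e-05) and 13.4 times it without DOX replicate 1. Bid had 16.3, 19.7 and 17.8 FPKM, 5.35 times the DOX mean (2.14 ± 0.18, adjusted p = 1.02e-05). These 3 genes were also called higher under TPM scaling and quantile normalization. Bad had 50.5, 51.6 and 53.9 FPKM, 1.26 times the DOX mean (0.33 ± 0.10, adjusted p = 0.0154). The call of Bad was lost without DOX replicate 3 (adjusted p = 0.061) and in limma-voom with median-ratio scaling (adjusted p = 0.0535).

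Against Unt, 7 members were called in D_MgHCF, 4 higher and 3 lower, beside 40.1% of the genes tested, and each kept its direction under TPM scaling and quantile normalization. With the filter at an FPKM of at least 1 the counts were the same, beside 24.6% of genes higher and 29.9% lower. Bmf was 12.6 times the Unt mean (1.74 ± 0.15, adjusted p = 3.43e-05), Bcl2l11 6.09 times (2.15 ± 0.23, adjusted p = 0.000101) and Bad 2.97 times (1.52 ± 0.10, adjusted p = 1.12e-05). Bcl2l1 was 1.63 times the Unt mean (0.62 ± 0.17, adjusted p = 0.0161), a call lost under TPM scaling (adjusted p = 0.116) and without Unt replicate 1 (adjusted p = 0.0526) or 2 (adjusted p = 0.0545). Bcl2 (-0.79 ± 0.14), Bcl2l2 (-0.72 ± 0.17) and Bak1 (-0.75 ± 0.14) were lower than in Unt, and the call of Bcl2l2 was lost in the fit of these 2 groups alone (adjusted p = 0.0516). Mcl1, Bax and Bid were not called against Unt, with log2 changes of -0.28 ± 0.44, 0.22 ± 0.16 and 0.34 ± 0.18. Against D_DXZ, 9 members were called, 6 higher and 3 lower on the deposited scale, beside 48.4% of the genes tested. With that filter the counts were again the same, beside 32.7% of genes higher and 37.6% lower. Under TPM scaling 7 were called higher and 0 lower, beside 51.1% of all genes higher and 6.23% lower. The call of Mcl1 (1.52 ± 0.44, adjusted p = 0.0152) was lost without D_DXZ replicate 3 (adjusted p = 0.0588).

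Ratios between members within a library do not depend on a scaling factor, and they are given without a test. The summed FPKM of the 4 anti-apoptotic genes over that of Bax and Bak1 lay between 0.670 and 0.754 in Unt, 0.0948 and 0.172 in DOX, 0.146 and 0.231 in D_DXZ, and 0.549 and 0.822 in D_MgHCF. On the log2 scale the group means were -0.48 ± 0.09, -3.04 ± 0.45, -2.43 ± 0.33 and -0.48 ± 0.33 (SD, n = 3). D_MgHCF replicate 1 lay below all Unt libraries, and replicates 2 and 3 lay above them. Neither Unt nor D_MgHCF overlapped DOX. Mcl1 alone made up between 70.1% and 73.6% of the anti-apoptotic sum in Unt and between 55.1% and 78.3% in D_MgHCF. The anti-apoptotic genes over the BH3-only genes gave another order, lying between 1.56 and 1.73 in Unt, 0.316 and 0.466 in DOX, 0.474 and 0.728 in D_DXZ, and 0.364 and 0.861 in D_MgHCF. Here the D_MgHCF libraries lay below all Unt libraries and overlapped both DOX and D_DXZ. The difference between D_MgHCF and DOX was 0.60 on the log2 scale from these sums, and -0.62 when log2(FPKM + 1) was averaged over each class. That between DOX and Unt was -2.18 from the sums and smaller, in the same direction, from the averages. Bad made up between 80.6% and 87.6% of the BH3-only sum in DOX.

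**Figure D3:**
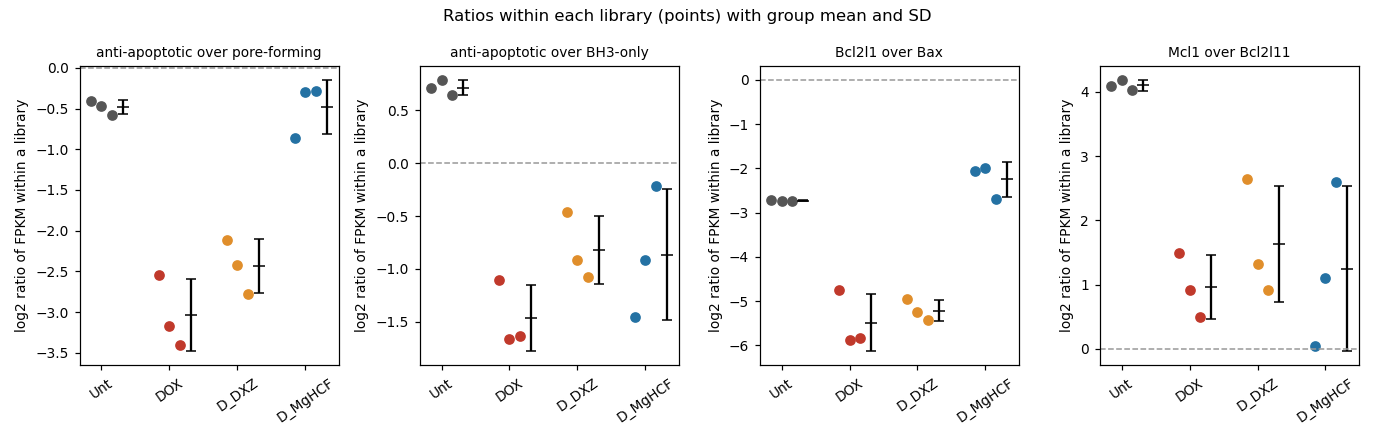
Log2 ratio of FPKM within each library (vertical axis) for the summed anti-apoptotic over pore-forming genes, the summed anti-apoptotic over BH3-only genes, Bcl2l1 over Bax, and Mcl1 over Bcl2l11. Points are libraries, black bars are group means with SD (n = 3), and the dashed line marks equal levels. In the ratio to the pore-forming genes the D_MgHCF points lie on both sides of the Unt points, with means of -0.48 in both groups. In the ratio to the BH3-only genes they lie below the Unt points.

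Among single pairs, Bcl2l1 over Bax was 0.149–0.152 in Unt, 0.0169–0.0373 in DOX, 0.0232–0.0322 in D_DXZ and 0.154–0.252 in D_MgHCF, all above Unt. Bax over Bcl2, a ratio often used as an index of apoptosis, was 11.1–13.8 in Unt, 81.4–92.8 in DOX, 39.2–51.9 in D_DXZ and 24.4–61.0 in D_MgHCF. Both combined treatments lay below DOX and above Unt in that ratio without overlap. Mcl1 over Bcl2l11 was 16.2–18.2 in Unt, 1.41–2.80 in DOX, 1.89–6.24 in D_DXZ and 1.03–6.07 in D_MgHCF, so that the 3 doxorubicin groups overlapped each other. Bcl2l1 over Bcl2l11 was 2.32–2.43 in Unt and below 1 in every doxorubicin library, at 0.447–0.734 in DOX, 0.456–0.859 in D_DXZ and 0.531–0.939 in D_MgHCF. Mcl1 over Bcl2l1 was 6.68–7.84 in Unt, 2.40–4.23 in DOX, 4.14–7.27 in D_DXZ and 1.94–6.46 in D_MgHCF.

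As shares of the summed FPKM of the 10 genes, the anti-apoptotic genes made up 33.2% ± 1.16 in Unt, 8.53% ± 2.32 in DOX, 12.4% ± 2.44 in D_DXZ and 24.0% ± 5.83 in D_MgHCF (SD, n = 3). The pore-forming genes made up 46.5% ± 1.24, 68.4% ± 3.57, 66.1% ± 2.31 and 32.9% ± 3.07 in the same order. The BH3-only genes made up 20.3% ± 0.618, 23.0% ± 1.65, 21.6% ± 1.26 and 43.2% ± 7.81, and Bad was the largest of them in all 12 libraries.

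**Figure D4:**
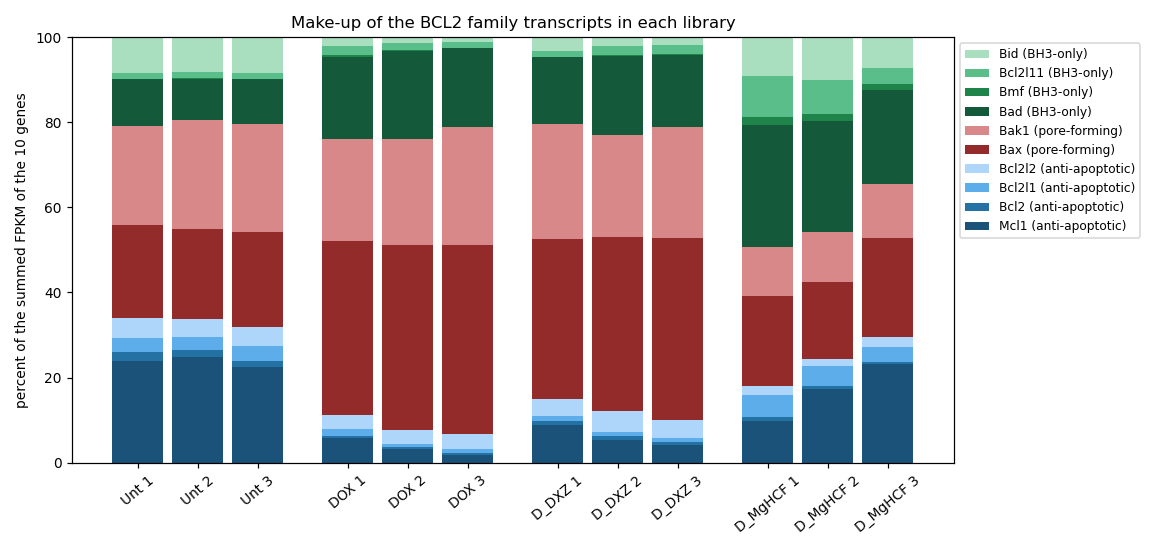
Percent of the summed FPKM of the 10 genes (vertical axis, from 0 to 100) taken by each gene in each of the 12 libraries, with anti-apoptotic genes in blue, pore-forming genes in red and BH3-only genes in green. The red part is largest in DOX (mean 68.4%) and the green part in D_MgHCF (mean 43.2%).

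Over the 12 libraries the members differed in how they varied together on log2(FPKM + 1), as a description, since the libraries share 4 treatments. Bcl2l1 and Bid had a Pearson r of 0.97, Bmf and Bcl2l11 0.94, and Mcl1 and Bid 0.92. Bax and Bid had an r of -0.92 and Bcl2 and Bad one of -0.90. Among 11517 genes with a mean FPKM of at least 1, the genes nearest to Mcl1 were Fbxl14 (r = 0.997), Elf2 (0.991) and Rfxap (0.99). Those nearest to Bcl2l1 were Slc25a28 (0.995), Ksr1 (0.995) and Zfyve1 (0.994), those nearest to Bax were Crip2 (0.997), Acads (0.995) and Sh3glb2 (0.993), and those nearest to Bcl2l11 were Idua (0.994), Fzd5 (0.991) and Mslnl (0.988).

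The counts of the lists that follow stand beside those of all genes tested. In DOX against Unt, 18.6% of all genes were called higher and 19.9% lower on the deposited scale, and 4.44% higher and 40.8% lower under TPM scaling. In D_MgHCF against DOX, 31.4% were called higher and 20.1% lower, and 53.9% and 6.75% under TPM scaling. The shares were larger with the filter at an FPKM of at least 1 on the deposited scale. They were 37.1% higher and 36% lower in DOX against Unt, and 35.9% and 39.2% in D_MgHCF against DOX.

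Of 15 other genes of the family, 10 were tested. In DOX against Unt 3 were higher and 1 lower on the deposited scale, 4 of 10 beside 38.4% of all genes, and 1 higher and 5 lower under TPM scaling. Bnip3l, a mitophagy receptor, went from 28.8, 27.3 and 25.7 FPKM in Unt to 80.1, 106 and 106 in DOX (1.79, adjusted p = 2.98e-05), and Bbc3, the BH3-only protein Puma, from 7.04, 6.84 and 7.05 to 1.40, 0.954 and 0.529 (-2.05, adjusted p = 0.000458). In D_MgHCF against DOX 3 were higher and 1 lower (6 and 1 under TPM scaling), 4 of 10 on the deposited scale beside 51.5% of all genes, with Bbc3 at 3.07, 3.40 and 9.25 FPKM in D_MgHCF (1.56, adjusted p = 0.00235) and Bnip3l at 37.0, 27.4 and 22.8 (-1.73, adjusted p = 3.05e-05). Bok, a pore-forming relative of Bax, was higher in both comparisons (0.37 and 0.39) on the deposited scale, and stood at -0.95 and 1.59 under TPM scaling.

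Of the 10 mitochondrial partners and released proteins, 7 were higher and 0 lower in DOX against Unt, and 0 were higher and 8 lower in D_MgHCF against DOX, on the deposited scale. Under TPM scaling these counts were 2 higher and 3 lower, and 2 higher and 5 lower. Cycs, the cytochrome c gene, went from 21.2, 23.6 and 24.5 FPKM in Unt to 90.7, 110 and 112 in DOX and 38.0, 38.8 and 36.0 in D_MgHCF. Vdac1, a channel of the outer membrane, had 80.04, 80.3 and 91.4 FPKM in Unt, 261, 301 and 317 in DOX and 96.2, 75.7 and 94.9 in D_MgHCF. The D_MgHCF libraries lay below all DOX libraries in both genes, and both kept these directions under TPM scaling (0.80 and -0.24 for Cycs, 0.43 and -0.50 for Vdac1).

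Of 7 genes that control the turnover of the MCL1 protein, 0 were higher and 3 lower in DOX against Unt (0 and 5 under TPM scaling), and 3 were higher and 2 lower in D_MgHCF against DOX (4 and 1). Fbxw7, the substrate receptor of a ubiquitin ligase, averaged 2.28 FPKM in Unt, 0.577 in DOX and 2.44 in D_MgHCF. Trim17, a ubiquitin ligase, had 0.652, 0.459 and 0.440 FPKM in DOX and 11.4, 5.22 and 1.19 in D_MgHCF, all above DOX (1.87). Fbxo4 averaged 5.92 FPKM in Unt, 7.33 in DOX and 1.04 in D_MgHCF, and Huwe1 averaged 27.1, 33.0 and 12.2. For both, the D_MgHCF libraries lay below all DOX libraries on the deposited scale. Of 14 regulators of BH3-only proteins, 10 were higher and 2 lower in DOX against Unt (2 and 5 under TPM scaling), and 2 were higher and 8 lower in D_MgHCF against DOX (5 and 6). Ywhaq, a 14-3-3 protein of the group that binds phosphorylated Bad, averaged 56.4 FPKM in Unt, 250.8 in DOX and 65.8 in D_MgHCF. The kinase Akt1, which phosphorylates Bad, averaged 69.5, 257.9 and 70.3 FPKM. Both kept their directions under TPM scaling (0.77 and -0.73 for Ywhaq, 0.52 and -0.66 for Akt1).

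Of 14 transcription factors known to act on genes of the family, 1 was higher and 9 were lower in DOX against Unt (0 and 12 under TPM scaling), and 8 were higher and 3 lower in D_MgHCF against DOX (12 and 0). Atf4, a factor of the integrated stress response, went from 271, 294 and 295 FPKM in Unt to 27.7, 19.7 and 18.4 in DOX (-3.67) and to 31.4, 78.3 and 109 in D_MgHCF. Myc went from 62.8, 72.1 and 71.3 FPKM to 7.42, 5.25 and 3.98 in DOX (-3.44) and 44.9, 29.5 and 17.1 in D_MgHCF. Jun had 5.60, 4.13 and 2.82 FPKM in DOX and 21.5, 21.3 and 22.9 in D_MgHCF (2.18). Trp53, named after its values were seen, encodes p53, a known activator of Bax and Bbc3. It averaged 60.0 FPKM in Unt and 66.5 in DOX and was not called between them (0.14, adjusted p = 0.47), and was lower under TPM scaling at -1.22. In D_MgHCF it had 26.4, 29.3 and 35.1 FPKM, below every DOX library (-1.11, adjusted p = 4.83e-05) on the deposited scale, while under TPM scaling it stood at 0.08 and was not called (adjusted p = 0.694). In D_DXZ against DOX, limma called no gene of any of these lists, as it called none of all genes.

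Some members share sequence with a neighbour, and the counting is not stated to have used strand. The gene models of 6 members overlapped another gene in the table, and for Bad with Gpr137, Bid with Bcl2l13 and Bak1 with Ggnbp1 that gene lies on the opposite strand and had up to 1227, 2259 and 257 reads in a library, so that reads in the shared part cannot be told apart. The genes overlapping Bcl2, Bcl2l2 and Bax had at most 3 reads. Gm20521 overlaps Bcl2l2 over 4794 bases and Gm45808 overlaps Bax over 915, both on the same strand. Since the counting program is not given, their low counts cannot show whether reads in the shared parts were dropped. Mcl1, Bcl2l1, Bmf and Bcl2l11 overlapped no other gene.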

How the data were processed

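The authors deposited FPKM values of 54345 genes in 12 libraries, with gene lengths and GRCm38 coordinates. The submitters' processing notes name HISAT2 2.0.5 and mouse builds, and the counting program, strand setting and annotation release are not given in the sources used here. Multiplying FPKM by gene length gave a fixed step per library and whole reads for 100% of values (within 0.05 of a whole number), and the implied scaling equalled a median-ratio factor. A read count of 3 was taken as the limit that a listed 0 allows, for counting error only.

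Tests were run with limma 3.58.1 (R 4.3.3). Values entered as log2(FPKM + 1), a scale that understates changes of low genes, in a single fit of the 4 groups over 25044 genes above 0 in at least 3 libraries, with a mean-dependent prior and Benjamini-Hochberg adjustment. A gene was called at an adjusted p under 0.05. The 10 members and all lists were chosen with earlier results of these data known. Of each other list, the genes named are among the 3 largest called changes whose libraries do not overlap and whose higher group averages an FPKM of 1 or more, and any others are given as values. Promoters come from RefSeq, and shared sequence was searched with BLAST 2.17.0 (95% identity over 150 bases) in GENCODE M21.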

Additional observations from a re-analysis of the deposited data

How the results depend on the processing

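The count of members called stayed within 1.5 times in each comparison under every alternative run, with the following exceptions. D_DXZ vs DOX went from 0 to 2 at an unadjusted p under 0.05, beside 2388 of the 25044 genes tested. D_MgHCF vs Unt went from 7 to 4 in the fit of 2 groups with the replicate block. All genes called there went from 10037 to 2759. The fit of these 2 groups without the block called 6218 genes, and 4 members higher and 2 lower. The loss therefore came partly with the change to 2 groups and partly with the block. With 1 library left out, the counts were 6 to 7 for DOX vs Unt, 6 for D_DXZ vs Unt, 6 to 7 for D_MgHCF vs Unt, 0 for D_DXZ vs DOX, and 8 to 9 for both D_MgHCF vs DOX and D_MgHCF vs D_DXZ. TPM scaling moves most genes together, and relative to the median of genes with a mean FPKM of at least 1, 17 of the 19 log2 changes that it reversed kept their sign, the exceptions being Bcl2l1 and Bcl2l11 in D_DXZ vs DOX. Since the deposited scaling equals a median-ratio factor, subtracting the median largely undoes TPM scaling. The kept signs are therefore not a separate check. Under TPM scaling, 19 of 60 log2 changes changed sign: in DOX vs Unt Bax (-0.059), Bak1 (-0.99), Bad (-0.13), Bmf (-0.31), Bcl2l11 (-0.68), in D_DXZ vs Unt Bcl2l2 (-1.07), Bax (-0.17), Bak1 (-0.99), Bad (-0.33), Bcl2l11 (-0.55), in D_DXZ vs DOX Bcl2l1 (0.11), Bcl2l11 (0.14), in D_MgHCF vs DOX Bcl2l2 (0.41), Bax (0.13), Bak1 (0.079), in D_MgHCF vs D_DXZ Bcl2 (0.52), Bcl2l2 (0.11), Bax (0.24), Bak1 (0.081). Under quantile normalization, 7 of 60 log2 changes changed sign: in DOX vs Unt Bcl2l2 (0.16), Bak1 (-0.68), in D_DXZ vs Unt Bak1 (-0.64), in D_DXZ vs DOX Bak1 (0.040), in D_MgHCF vs DOX Bcl2 (-0.30), Bax (0.046), in D_MgHCF vs D_DXZ Bax (0.074). Under limma-voom on the recovered reads scaled by their sum, 11 of 60 log2 changes changed sign: in DOX vs Unt Bak1 (-0.58), Bmf (-0.44), Bcl2l11 (-0.36), in D_DXZ vs Unt Bcl2l2 (-0.69), Bak1 (-0.57), Bcl2l11 (-0.19), in D_DXZ vs DOX Bcl2l1 (0.17), Bak1 (0.0090), Bcl2l11 (0.17), in D_MgHCF vs DOX Bcl2l2 (0.19), in D_MgHCF vs D_DXZ Bcl2 (0.39). The pseudocount of 0.1, the absence of a filter, the filter at an FPKM of at least 1, the fit of 2 groups and limma-voom with median-ratio scaling reversed none. With 1 library left out, signs changed for Bmf in DOX vs Unt (-0.019 to 0.30), Bcl2l2 in D_DXZ vs Unt (-0.037 to 0.14), Mcl1 in D_MgHCF vs Unt (-0.67 to 0.15) and, in D_DXZ vs DOX, Bcl2l1 (-0.14 to 0.21) and Bcl2l11 (-0.14 to 0.17), none of them called.

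The log2 balance of anti-apoptotic over pore-forming genes in DOX vs Unt (-2.55) was -1.65 under quantile normalization and -1.93 as a mean of log2 values over each class, and that in D_MgHCF vs DOX (2.55) was 1.71 and 1.90. The balance over BH3-only genes as a mean of log2 values was -1.11 in DOX vs Unt and -0.62 in D_MgHCF vs DOX, against -2.18 and 0.60 from sums. With 1 library left out, the pore-forming balance ranged from -2.80 to -2.37 in DOX vs Unt, 0.42 to 0.85 in D_DXZ vs DOX and 2.37 to 2.80 in D_MgHCF vs DOX, and the BH3-only balance from -2.36 to -2.08, 0.47 to 0.83 and 0.28 to 0.90.

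The deviations of same-numbered libraries from their group means had 18 correlations of -0.41 to 0.42. The highest were between DOX and D_DXZ, at 0.42 for replicate 1 and 0.35 for replicate 3, with 0.05 for replicate 2. In no comparison did all 3 pairs exceed 0.1, and the numbers were not treated as pairs. With the replicate block in the fit of 4 groups, 7 members were called in DOX vs Unt, Bak1 being added (adjusted p = 0.0295), and no other call changed. With the block in fits of 2 groups, the counts are given beside those of all 25044 genes. They were 7 in DOX vs Unt (9962 genes), 6 in D_DXZ vs Unt (9216) and 4 in D_MgHCF vs Unt (2759). D_DXZ vs DOX had 0 (0 genes, 4812 at an unadjusted p under 0.05). D_MgHCF vs DOX had 6 (6441 genes) and D_MgHCF vs D_DXZ had 6 (4666). The calls lost were Bcl2, Bcl2l1 and Bcl2l2 in D_MgHCF vs Unt, Mcl1 (adjusted p = 0.0759), Bcl2l2 and Bad in D_MgHCF vs DOX, and Mcl1, Bcl2l2 and Bax in D_MgHCF vs D_DXZ. The 2-group fits with the block and the 2 forms of limma-voom were added after the data had been seen. The planned negative binomial test was not run, and limma-voom on the recovered reads took its place. Depth limits Bmf most, with 9 to 65 reads outside D_MgHCF.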
